A study of Mus musculus with 6 samples.

Results

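The interferon regulatory factors were followed through 9 array probes whose RefSeq accession belongs to one of 8 mouse genes: Irf1, Irf2, Irf3, Irf4, Irf5, Irf7, Irf8 and Irf9. They were read on all 6 arrays of the study, among 55681 probes, of which 26722 could be matched to 20259 named genes. Irf1 was represented by 2 probes and each of the other 7 genes by 1. The cells were Tot2, a myeloid progenitor line that had been derived from an Irf8 knockout mouse, so the background of every group, controls included, was Irf8-deficient. All cells grew with 20% serum, 2 mM glutamine and 5 ng/ml granulocyte-macrophage colony stimulating factor. They were transduced with a retrovirus and 4 µg/ml polybrene, were selected with 2 µg/ml puromycin from 48 hr, and were harvested on day 4. The control cells received the MSCV-puro vector, another group received MSCV-IRF8FLAG, and the last received MSCV-KLF4FLAG. KLF4 is a zinc finger transcription factor of monocytes. There were 2 arrays in each group, 1 from each of 2 independent experiments. A single cell line carried all of the comparisons, and the description gives no further detail on how separate the cultures were, so p-values measure the spread between these samples.

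Interferon regulatory factors are transcription factors that share a DNA-binding domain and recognise GAAA-containing elements, alone or together with a partner protein. In myeloid cells they serve several functions: IRF3, IRF5 and IRF7 are activated by kinases below pathogen sensors, IRF9 joins STAT proteins in the complex that answers type I interferon, IRF1 and IRF2 act on interferon-responsive elements as activator and as mainly a repressor, and IRF4 and IRF8 bind poorly alone and pair with the ETS factor PU.1 or with BATF proteins. IRF8 is required for the monocyte and dendritic cell lineages, and its loss in mice expands granulocytes.

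The identity of the groups rests on the labels. The Klf4 probe did not separate the KLF4-labelled arrays from the controls: its mean log2 signal relative to the 75th percentile of the array was -1.45 on control arrays, -1.44 on KLF4-labelled arrays and 4.53 on IRF8-labelled arrays. No probe sequence was used here, so whether the Klf4 or the Irf8 probe lies in the transduced coding sequence, or the Irf8 probe in the deleted part of the gene, was not determined. Neither probe therefore checks the labels, and directions below are those of the arrays labelled IRF8 or KLF4.

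The promoter windows of the 8 genes are shown in part because most members of the family changed in these cells, and because several of the family's promoters are known targets of interferon signalling. RefSeq (GRCm38.p6) gave 11 windows for them, each from 250 bases before an annotated transcript start to 50 bases after it. Each was searched on both strands for GAAA followed after any 2 bases by GAAA, a pair of the half-sites that IRF proteins bind, for GGAA followed after any 2 bases by GAAA, a joined ETS and IRF site, and for TTCNNNGAA, the palindrome bound by STAT dimers. Of 32851 windows in the same table, 3.44% held the first motif, 2.72% the next and 8.30% the last. Capitals mark the matches. The Irf2 window (chr8:46739495-46739794, plus strand) was the only 1 of the 11 with either GAAA motif, and these overlapped, at positions -241 to -232 and -247 to -238 from the start, beside a STAT palindrome at -224 to -216. The first Irf8 window (chr8:120736108-120736407, plus strand) held 2 STAT palindromes, at -171 to -163 and at -153 to -145, and the first Irf1 window (chr11:53769764-53770063, plus strand) held 1, at -90 to -82. The Irf5 window (chr6:29526375-29526674, plus strand) is shown because Irf5 had the largest difference of the family, and none of the 3 motifs was in these letters. Matches are descriptions of sequence and not measured sites.
Irf2: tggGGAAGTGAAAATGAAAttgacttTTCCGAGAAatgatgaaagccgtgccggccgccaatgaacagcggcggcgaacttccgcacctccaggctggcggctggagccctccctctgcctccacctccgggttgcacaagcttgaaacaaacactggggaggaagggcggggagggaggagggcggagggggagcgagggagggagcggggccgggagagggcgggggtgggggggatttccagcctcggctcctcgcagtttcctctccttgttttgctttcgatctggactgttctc
Irf8: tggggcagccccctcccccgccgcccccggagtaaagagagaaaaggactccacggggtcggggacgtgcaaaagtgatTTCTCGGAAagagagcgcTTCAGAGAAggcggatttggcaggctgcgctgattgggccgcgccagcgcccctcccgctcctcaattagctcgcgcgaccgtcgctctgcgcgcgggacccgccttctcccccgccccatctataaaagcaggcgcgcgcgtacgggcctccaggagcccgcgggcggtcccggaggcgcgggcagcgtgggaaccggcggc
Irf1: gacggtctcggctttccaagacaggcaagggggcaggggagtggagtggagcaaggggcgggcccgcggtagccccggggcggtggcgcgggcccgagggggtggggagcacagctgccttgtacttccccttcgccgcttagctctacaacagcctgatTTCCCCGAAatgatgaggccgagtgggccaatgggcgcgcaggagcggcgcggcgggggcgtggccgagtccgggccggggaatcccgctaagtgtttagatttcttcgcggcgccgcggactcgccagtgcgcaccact
Irf5: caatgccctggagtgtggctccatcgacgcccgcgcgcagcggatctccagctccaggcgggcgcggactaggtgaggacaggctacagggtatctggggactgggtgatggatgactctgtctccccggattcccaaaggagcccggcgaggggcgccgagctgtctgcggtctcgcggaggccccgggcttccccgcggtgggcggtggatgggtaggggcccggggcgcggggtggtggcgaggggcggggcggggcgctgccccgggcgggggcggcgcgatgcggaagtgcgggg

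Levels are given as log2 of the background-subtracted signal relative to the 75th percentile of the same array, experiment 1 first and experiment 2 second. Differences are log2 differences of group means with the standard error (SE) of a limma fit over all 6 arrays (n = 2 per group), and adjusted p-values are from limma after the Benjamini-Hochberg step across all 13244 tested genes, with a threshold of 0.05. The comparisons of the IRF8-labelled and of the KLF4-labelled cells with control cells share the control arrays. In bulk RNA, fewer cells of a type and less RNA per cell cannot be told apart. No spot of a probe in use was saturated, 47.1% to 56.8% of the probes of an array were well above background, and arrays correlated at r = 0.993 to 0.995 within a group and 0.889 to 0.960 between groups. The level of one probe is not compared with that of another.

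Among the 8 genes, 6 rose in the IRF8-labelled cells, Irf3 fell, and Irf1 did not pass the test. The 6 include Irf8, the gene carried by the IRF8 vector, and whether its probe reads the vector was not determined. Over all genes 61.5% were called in this comparison, 25.8% higher and 35.7% lower, so a called gene was the usual case here. The 6 members that were above background on all 6 arrays, Irf8 included, had a median log2 difference of 2.11. It was -0.13 over all genes tested and -0.19 over the 11662 genes above background on all 6 arrays. The arrays of the 2 groups did not overlap for any of the 8 genes, which held for 80.3% of all genes. In the KLF4-labelled cells, 5 of the 8 rose (Irf4, Irf5, Irf7, Irf8 and Irf9) and the other 3 did not pass. Without either KLF4-labelled array 3 of the 5 remained above the threshold, Irf5, Irf7 and Irf8. Over all genes 19.2% were called in that comparison, 10.4% higher and 8.85% lower. The median of the 6 members above background throughout was 0.46, against -0.16 over all genes and -0.18 over the genes above background throughout. The groups did not overlap for 6 of the 8 genes, against 64.9% of all genes. All 8 genes passed the filter on dim probes, but Irf4 and Irf7 passed it only through the IRF8-labelled and KLF4-labelled groups, so that they were bound to differ from control, and they are left out of these medians.

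The number of calls over all genes in the KLF4 comparison depended on the fit and on the scaling. With the experiment as a replicate block it was 6743, of which 2186 were higher and 4557 lower. It was 1498 (1315 higher, 183 lower) when arrays were scaled on their median, 2329 (1562 higher, 767 lower) after quantile normalization and 1055 (930 higher, 125 lower) when scaled on spike-ins, against 1372 higher and 1172 lower in the fit reported here. With any 1 array left out it was 875 to 1617.

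**Figure D1:**
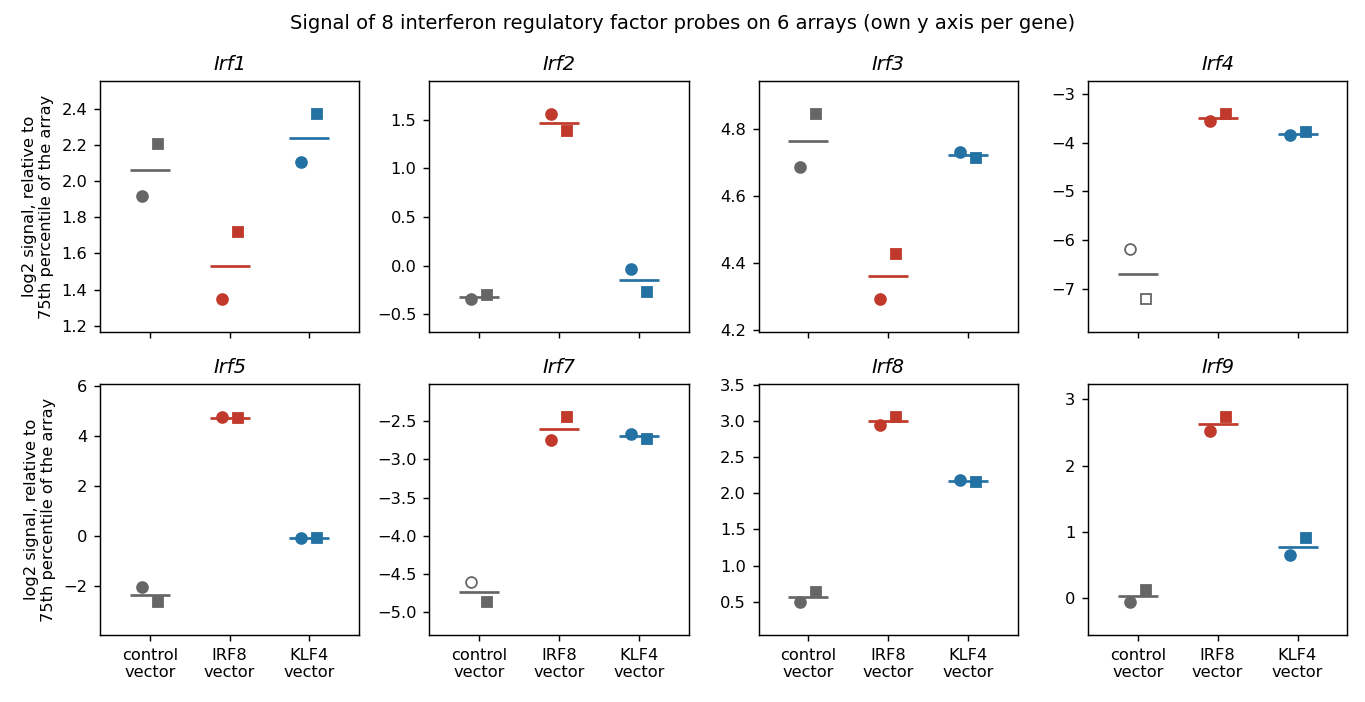
Log2 signal of the 8 interferon regulatory factor genes on each array, relative to the 75th percentile of that array (y axis, its own range per gene), by group (x axis). Circles are experiment 1, squares experiment 2, bars group means, and open symbols are spots not well above background. Irf5 and Irf9 stand in the order control, KLF4-labelled, IRF8-labelled, while Irf4 and Irf7 are at nearly one height on the IRF8-labelled and KLF4-labelled arrays, above control.

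Irf8, the gene disrupted in the mouse from which the line came, was read by probe A_52_P354823. Its levels were 0.49 and 0.64 on control arrays, 2.94 and 3.05 on IRF8-labelled arrays, and 2.18 and 2.16 on KLF4-labelled arrays. The probe was well above background on all 6 arrays, so it gave signal in control cells of an Irf8 knockout line, and the 3 groups followed each other without overlap. The IRF8-labelled cells were above control by 2.43 ± 0.10 (5.39-fold, 95% interval 4.54 to 6.40, limma adjusted p = 5.36e-05), with 2.45 and 2.41 in the separate experiments. The KLF4-labelled cells, which received no Irf8 vector by their label, were above control by 1.60 ± 0.10 (3.04-fold, adjusted p = 6.06e-04 by limma), with 1.69 and 1.52 in the experiments. Set directly against each other, the IRF8-labelled cells were higher by 0.83 ± 0.10 (1.78-fold, limma adjusted p = 0.00210), a call that did not hold with spike-in scaling (0.67, adjusted p = 0.181). Whether the signal came from the vector, from the cells' own locus or from both was not tested.

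Irf4, which encodes the family member closest to IRF8 in sequence and is used by B cells, plasma cells and some dendritic cells and macrophages, was dim. Its levels were -6.19 and -7.20 on the control arrays, neither of which was well above background, -3.57 and -3.42 on IRF8-labelled arrays, and -3.84 and -3.79 on KLF4-labelled arrays. The 4 IRF8-labelled and KLF4-labelled arrays were well above background and lay close together. With the control group at the lowest signal that counted as above background, Irf4 was at least 2.50-fold higher in IRF8-labelled cells. In KLF4-labelled cells it was at least 2.00-fold higher. These limits are approximate, because some probes not above background read higher than that lowest signal. The fit itself used the control signal below background, and called both differences (limma adjusted p = 9.03e-04 and 0.00579). Irf4 passed the filter on dim probes only through these labelled groups, so the calls are no independent support. Both calls were lost with the normexp background correction (adjusted p = 0.0832 and 0.237), and the second also without either KLF4-labelled array (0.0533 and 0.0511). The IRF8-labelled and KLF4-labelled cells differed by 0.32 ± 0.33 (95% interval -0.53 to 1.18, limma adjusted p = 0.464), so a difference of either sign was not resolved. Of 5 B cell markers none exceeded background on both arrays in any group, and 6 of 7 dendritic cell markers were in IRF8-labelled cells, 4 in KLF4-labelled cells and 2 in control cells. The part of either cell type in the Irf4 result was not tested.

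Irf5 showed the widest separation of the family. It encodes a factor activated below Toll-like receptors through MyD88 and is strongly expressed in monocytes and macrophages. Its levels were -2.04 and -2.63 on control arrays, 4.74 and 4.71 on IRF8-labelled arrays, and -0.06 and -0.07 on KLF4-labelled arrays, well above background throughout. The 3 groups were far apart, and the arrays of each labelled group lay close together. The difference from control was 7.06 ± 0.20 in IRF8-labelled cells (133-fold, 95% interval 93.3 to 190, limma adjusted p = 2.18e-05), and only 90 of the 13244 genes tested had a larger one. It was 2.26 ± 0.20 in KLF4-labelled cells (4.80-fold, limma adjusted p = 0.00223). Directly compared, IRF8-labelled cells exceeded KLF4-labelled cells by 4.79 ± 0.20 (27.8-fold, 4.80 and 4.79 in the experiments, limma adjusted p = 1.65e-04), with 80 genes above it. These 3 calls held in all 18 alternative settings.

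Irf7 encodes the interferon-inducible factor that amplifies type I interferon production. Its levels were -4.61 and -4.87 on control arrays, -2.74 and -2.45 on IRF8-labelled arrays, and -2.66 and -2.73 on KLF4-labelled arrays. Of the control arrays, that of experiment 2 was well above background and that of experiment 1 was not. The 4 IRF8-labelled and KLF4-labelled arrays were all above background, intermingled and higher than both controls. The difference from control was 2.15 ± 0.15 in IRF8-labelled cells (4.42-fold, limma adjusted p = 2.44e-04) and 2.04 ± 0.15 in KLF4-labelled cells (4.12-fold, limma adjusted p = 0.00111). With 1 of 2 control arrays at background these folds rest partly on an unmeasured level, and the second call was lost under normexp (0.79, adjusted p = 0.0898). Irf7 passed the filter on dim probes only through the labelled groups, so its calls against control are no independent support. The labelled groups differed from each other by 0.10 ± 0.15 (95% interval -0.28 to 0.48, limma adjusted p = 0.603).

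Irf3, the factor held latent in the cytoplasm until TBK1 phosphorylates it, was read at 4.69 and 4.84 on control arrays, 4.29 and 4.43 on IRF8-labelled arrays, and 4.73 and 4.71 on KLF4-labelled arrays. It was below the other groups on both IRF8-labelled arrays, and the control and KLF4-labelled arrays overlapped. Irf3 fell by 0.41 ± 0.10 against control in IRF8-labelled cells (1.32-fold lower, limma adjusted p = 0.0192) and was 0.36 ± 0.10 lower than in KLF4-labelled cells (limma adjusted p = 0.0339). The first call was lost in 5 of 18 alternatives and the second in 9 of 18, including without the first IRF8-labelled array (adjusted p = 0.118 and 0.182). KLF4-labelled and control cells differed by -0.04 ± 0.10 (95% interval -0.30 to 0.22, limma adjusted p = 0.775), a sign that turned with the scaling.

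Irf9, the DNA-binding subunit of the interferon-stimulated complex ISGF3, had levels of -0.06 and 0.13 on control arrays, 2.52 and 2.73 on IRF8-labelled arrays, and 0.65 and 0.91 on KLF4-labelled arrays. The groups followed each other as for Irf5 without overlap. The IRF8-labelled cells were 2.59 ± 0.14 above control (6.02-fold, 2.58 and 2.60 in the experiments, limma adjusted p = 1.37e-04) and 1.84 ± 0.14 above KLF4-labelled cells (3.59-fold, limma adjusted p = 6.79e-04). The KLF4-labelled cells were 0.74 ± 0.14 above control (1.68-fold, limma adjusted p = 0.0287). That call was lost in 10 of 18 alternatives, among them the omission of any of the 6 arrays, with adjusted p up to 0.245.

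Irf2, which occupies the same elements as IRF1 and mostly represses from them, separated the IRF8-labelled cells alone. Its levels were -0.34 and -0.30 on control arrays, 1.56 and 1.38 on IRF8-labelled arrays, and -0.03 and -0.27 on KLF4-labelled arrays. Both IRF8-labelled arrays were above the other 4, which lay within a narrow range. The difference was 1.79 ± 0.12 against control (3.47-fold, 95% interval 2.79 to 4.30, limma adjusted p = 2.31e-04) and 1.62 ± 0.12 against KLF4-labelled cells (3.08-fold, limma adjusted p = 6.14e-04). KLF4-labelled and control cells differed by 0.17 ± 0.12 (95% interval -0.14 to 0.48, limma adjusted p = 0.344).

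Irf1, an activator induced by interferon gamma, was lowest on the IRF8-labelled arrays within each experiment. Probe A_55_P2000062 gave 1.92 and 2.21 on control arrays, 1.35 and 1.72 on IRF8-labelled arrays, and 2.11 and 2.37 on KLF4-labelled arrays. Control and KLF4-labelled arrays overlapped, and every value of experiment 2 exceeded the value of the same group in experiment 1. The difference from control in IRF8-labelled cells, -0.53 ± 0.19, did not pass (limma adjusted p = 0.0571), while with the experiment as a replicate block it did (adjusted p = 0.00189). The difference from KLF4-labelled cells, -0.71 ± 0.19, passed (limma adjusted p = 0.0289) but was lost in 6 of 18 alternatives, including without the first IRF8-labelled array (adjusted p = 0.133) or without either KLF4-labelled array (0.0618 and 0.135). The KLF4-labelled cells stood 0.18 ± 0.19 from control (95% interval -0.30 to 0.65, limma adjusted p = 0.521). The second Irf1 probe, A_55_P2000067, was not well above background on any array and adds no measurement.

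**Figure D2:**
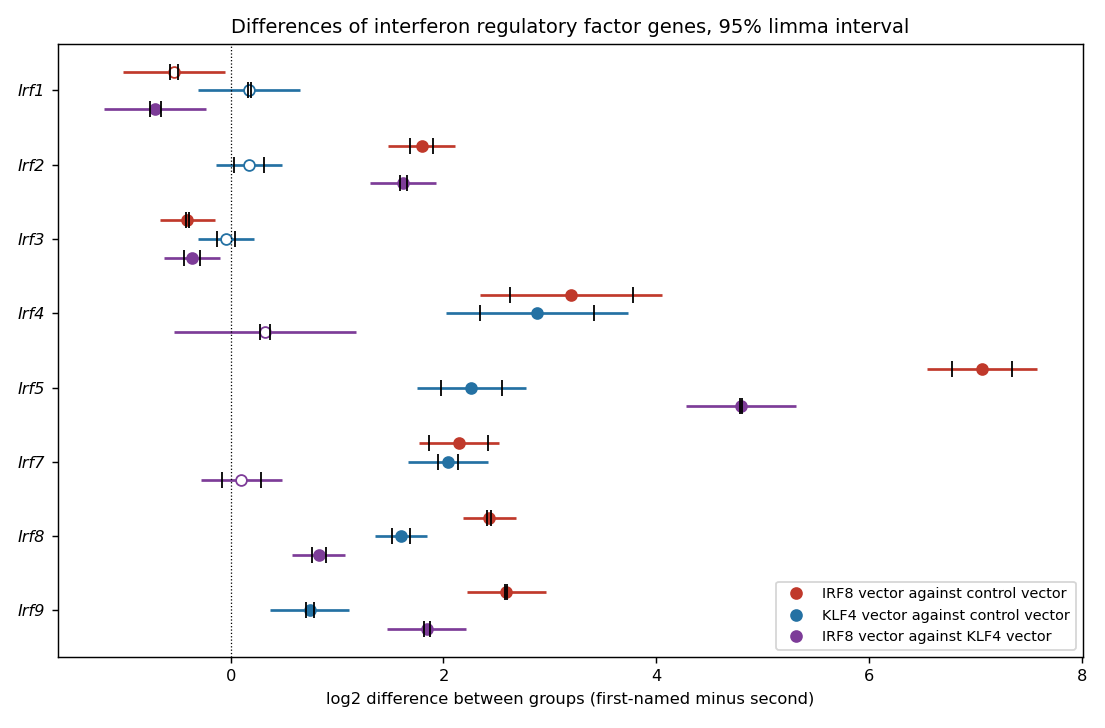
Log2 differences between groups for the 8 genes (x axis, the first-named group minus the second), with 95% limma intervals as lines, group differences as circles (filled where the adjusted p was under 0.05) and the 2 separate experiments as ticks. Irf5 stands out at 7.06 for IRF8-labelled against control cells, and Irf4 and Irf7 have intervals across 0 in the direct comparison of the labelled groups. The Irf4 differences from control rest on control spots that were not above background.

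In the direct comparison, 4 of the 8 genes were higher with the IRF8 label than with the KLF4 label (Irf2, Irf5, Irf8 and Irf9), Irf1 and Irf3 were lower, and Irf4 and Irf7 did not pass. Over all genes 50.6% were called, 23.7% higher and 26.8% lower, and with arrays scaled on their median the split was 2076 higher and 3849 lower in place of 3141 and 3554. The median difference of all 8 members was 0.58, and that of the 6 above background on all arrays was 1.23, with Irf8 included in both. Over all genes it was -0.01, which moved to -0.17 with median or spike-in scaling, and over the genes above background on all arrays it was -0.03. The groups did not overlap for 7 of the 8 genes, against 75.5% of all genes.

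By the order of their levels the family fell into 4 patterns. Irf5, Irf8 and Irf9 went from control through KLF4-labelled to IRF8-labelled cells, with each neighbouring pair past the threshold in the fit reported here. Only Irf5 held both steps in every alternative. The Irf9 step from control to KLF4-labelled cells was lost in 10 of 18, and the Irf8 step between the labelled groups with spike-in scaling. Irf4 and Irf7 were above control in both, but they entered the test only through the labelled groups, so that rise is no independent support. Their difference between the labelled groups was not resolved. Irf2 was raised in IRF8-labelled cells, with no resolved difference between the other 2 groups. Irf1 and Irf3 were lowest in IRF8-labelled cells, and their control and KLF4-labelled levels were not resolved from each other. The Irf1 difference from control did not pass, and the calls of neither gene held in every alternative. The distribution over all genes puts these values in place: Irf5 was at the 99.3rd percentile of differences from control in IRF8-labelled cells and Irf9 at the 94.3rd, while in KLF4-labelled cells Irf5 was at the 96.8th and Irf8 at the 95.3rd. Irf4 has no rank against control, where it was not above background.

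**Figure D3:**
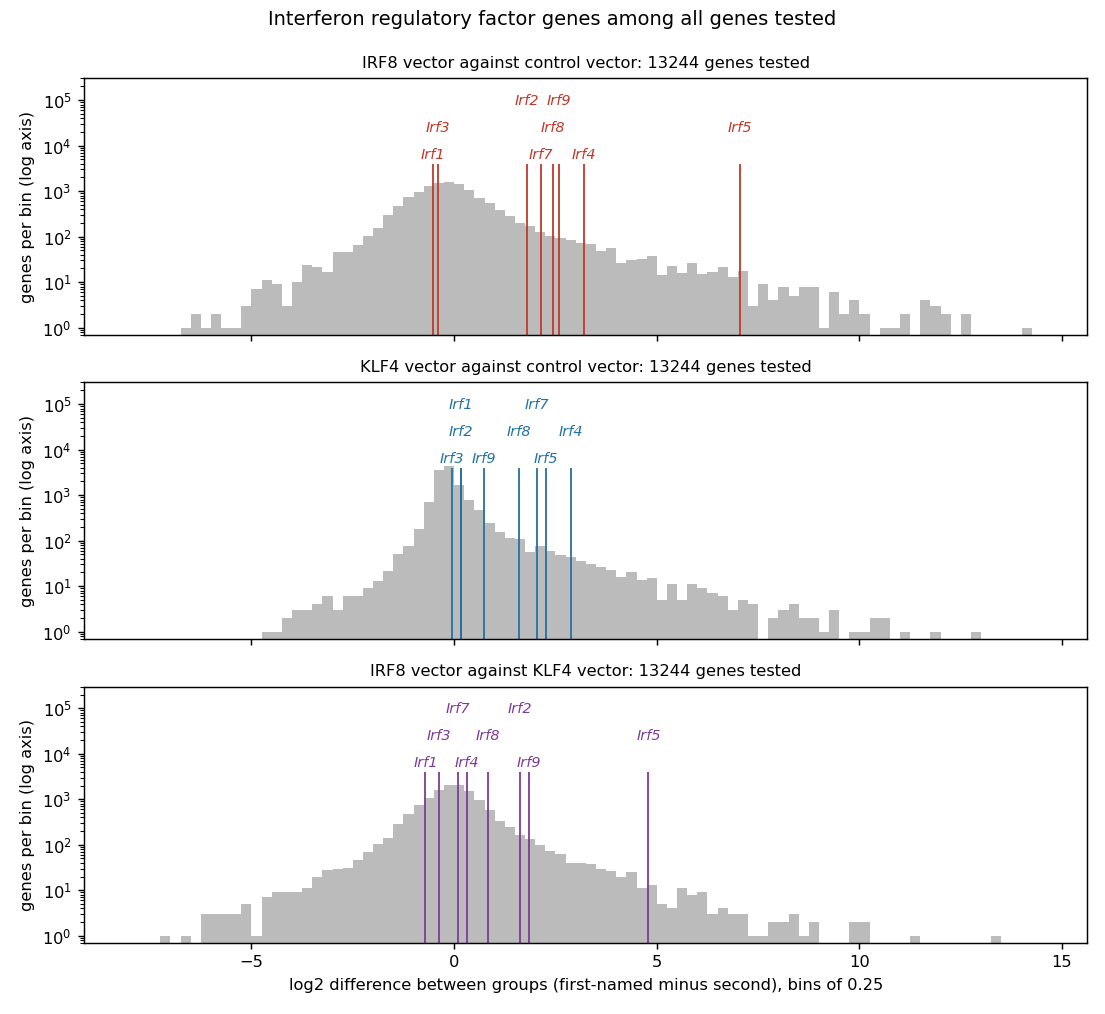
Number of genes (y axis, log scale) by log2 difference between groups (x axis, bins of 0.25) for the 13244 genes tested in each comparison, with the 8 interferon regulatory factor genes as vertical lines. Irf1 and Irf3 lie within the bulk in each panel, and Irf5 lies far in the upper tail of both panels that involve IRF8-labelled cells. The Irf4 line in the 2 comparisons with control uses control spots below background.

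For the 5 genes raised in both labelled groups, the genes with the most similar pattern were found by the root mean square difference of log2 signals over the 6 arrays, after centring each gene on its control mean. Irf8 was closest to Slc7a8, an amino acid transporter, at 0.0590, then to Tmem86a at 0.0626 and Pkdcc at 0.0708. Irf5 was closest to Sirpb1c (0.212), Aqp3, a water and glycerol channel (0.248), and Mrc1, the macrophage mannose receptor (0.320), and the first 2 were not above background on every array. Irf9 was closest to Eps8 (0.0839), Nceh1 (0.103) and the interferon-inducible Trim30a (0.106). Irf7 lay nearest Cd44, a hyaluronan receptor (0.156), Adora2b (0.167) and Rras (0.174). Irf4 lay nearest Rora, a nuclear receptor (0.193), Ypel2 (0.208) and Brd8dc (0.239), each above background on 4 of 6 arrays. These are likenesses over 3 groups of 2 arrays, and many genes can share such a pattern.

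The summed signals of cell type markers separated some of the groups and overlapped between others. The summed linear signal of 8 neutrophil markers (Ltf, Ngp, Camp, S100a8, S100a9, Lcn2, Mmp9 and Cebpe), in units of the 75th percentile of the array, was 753 to 903 on control arrays, 431 to 573 on KLF4-labelled arrays and 37.5 to 38.8 on IRF8-labelled arrays. That of 7 dendritic cell markers was 88.3 to 103 on control arrays, 65.8 to 91.0 on KLF4-labelled arrays and 212 to 213 on IRF8-labelled arrays. That of 8 monocyte and macrophage markers was 412 to 515 on control arrays, 413 to 561 on KLF4-labelled arrays and 353 to 367 on IRF8-labelled arrays, with 5 of them above background on both control arrays and 7 in each labelled group. That of 10 progenitor markers was 1648 to 2243 on control arrays, 1194 to 1853 on KLF4-labelled arrays and 610 to 758 on IRF8-labelled arrays. Of these 10, 7, 9 and 7 were above background in control, IRF8-labelled and KLF4-labelled cells, and Kit was in none of the 3 groups. The part of these cell types in the differences of the interferon regulatory factors was not tested.

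Counts over the lists of related genes are read against the shares called over all genes, 61.5% for IRF8-labelled cells against control, 19.2% for KLF4-labelled cells against control and 50.6% in the direct comparison. Of 9 tested genes for DNA-binding partners of these factors, 4 rose and 2 fell in IRF8-labelled cells, a share near that of all genes, with a list median of 0.69 against -0.13 over all genes. Batf3, a basic leucine zipper partner of IRF4 and IRF8 needed for one class of dendritic cells, rose 58.6-fold (5.87 ± 0.19, limma adjusted p = 3.22e-05), and Batf2 rose 3.12-fold. Tcf3 and Etv6 fell by 0.67 and 0.63. Spi1, which encodes PU.1, rose 1.61-fold, and Stat2 rose 2.10-fold. In KLF4-labelled cells 1 of 9 rose, Batf3 at 8.04-fold (limma adjusted p = 7.66e-04), with a list median of 0.01 against -0.16. With the replicate block 4 were called there, 2 higher and 2 lower, and without either control array 2. Batf3 was 7.29-fold higher with the IRF8 label than with the KLF4 label (limma adjusted p = 4.62e-04), where 4 of the 9 were higher and Tcf3 was lower. That count of 5 was 3 without the second IRF8-labelled or the first KLF4-labelled array and with spike-in scaling.

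Interferon genes themselves were dim. Ifnb1, Ifna4, Ifng and Ifne were not above background on both arrays of any group and were not tested. The other 3 of the list, Ifna2, Ifna5 and Ifnk, did not pass in any of the 3 comparisons by limma, and for each comparison 0 of 3 had an unadjusted p under 0.05. The replicate block called 1 of them, Ifna5, in the KLF4 comparison and in the direct comparison, and without the second IRF8-labelled array 1 was called in each comparison that involved these cells. Ifna5 differed by -0.40 ± 0.44 between KLF4-labelled and control cells without the block (limma adjusted p = 0.530).

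Of 10 genes for interferon receptors and their JAK-STAT pathway, 5 rose in IRF8-labelled cells and the other 5 did not pass, a share below the 61.5% of all genes, with a median of 0.74. Jak2, a kinase of the interferon gamma and cytokine receptors, rose 4.46-fold (2.16 ± 0.15, limma adjusted p = 2.70e-04), and Ifnar1, a chain of the type I interferon receptor, rose 4.39-fold (2.13 ± 0.10, limma adjusted p = 8.04e-05). Ifngr2, Tyk2 and Stat2 were the other 3. The replicate block called 8, 7 higher and 1 lower. In KLF4-labelled cells Ifnar1 (1.75-fold) and Ifngr2 (1.70-fold) rose and the other 8 did not pass, close to the 19.2% of all genes, with a median of 0.02. In place of these 2 calls there were 0 without the first KLF4-labelled array or with spike-in scaling, and 1 without the second. All 5 of the genes that rose in IRF8-labelled cells were also higher there than in KLF4-labelled cells, among them Jak2 at 4.89-fold, and spike-in scaling called 3.

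The sensors, adaptors and kinases that activate IRF3, IRF5 and IRF7 were mixed. In IRF8-labelled cells 8 of 20 rose and 4 fell, near the 61.5% called over all genes, with a median of 0.23. Unc93b1, the chaperone that delivers nucleic acid-sensing Toll-like receptors to endosomes, rose 5.08-fold (2.35 ± 0.16, limma adjusted p = 2.18e-04). Ticam2 rose 3.56-fold with 1 of 2 control arrays above background. It passed the filter on dim probes only through labelled groups, so its call is no independent support. Cgas, the cytosolic DNA sensor, fell by 1.10 ± 0.14 (limma adjusted p = 0.00158), while Sting1 downstream of it rose 2.03-fold. Traf3 fell by 0.84 ± 0.24 (limma adjusted p = 0.0297). In KLF4-labelled cells 1 of 20 rose, Ikbke, a kinase of IRF3 and IRF7, at 3.27-fold (1.71 ± 0.18, limma adjusted p = 0.00413), with a list median of -0.02. The replicate block called 10 there, 4 higher and 6 lower, and 2 were called without the second control array. Ikbke was 3.64-fold lower with the IRF8 label than with the KLF4 label (-1.86 ± 0.18, limma adjusted p = 0.00121), the largest fall of the 4 called lower in that comparison, where 7 were higher and 50.6% of all genes were called. Those 11 calls became 5 without the first KLF4-labelled array, 7 without the second or without either IRF8-labelled array, and 3 with spike-in scaling, which also gave 5 calls in place of 12 in IRF8-labelled cells against control.

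Among 12 inhibitors of these factors or of interferon signalling, 5 rose and 2 fell in IRF8-labelled cells, near the 61.5% called over all genes, with a median of 0.11. Usp18, which shuts off the type I interferon receptor and is itself interferon-induced, was at least 11.7-fold higher (limma adjusted p = 1.67e-05). It passed the filter on dim probes only through labelled groups, so its calls against control are no independent support. Socs3, a brake on JAK signalling, was 6.85-fold higher (limma adjusted p = 3.37e-05). Irf2bp1, a corepressor that binds IRF2, fell by 1.08. The replicate block called 11, 6 higher and 5 lower, and without the first IRF8-labelled array 4 were called. In KLF4-labelled cells Socs3 rose 4.27-fold (limma adjusted p = 2.22e-04) and Usp18 was at least 2.15-fold higher (limma adjusted p = 7.87e-04), with a list median of -0.05, and with the block 5 were called, 3 higher and 2 lower. Usp18 was 5.43-fold higher with the IRF8 label than with the KLF4 label, where 4 were higher and 2 lower, near the 50.6% of all genes, and 3 were called without the second IRF8-labelled or the first KLF4-labelled array.

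Of 20 tested interferon-stimulated genes, 14 rose and 4 fell in IRF8-labelled cells, beside 25.8% higher and 35.7% lower over all genes. The list, chosen with earlier results of these data known, had a median of 1.33 against -0.13 over all genes. Of those that rose, Ifit3, Oasl1, Oasl2, Rsad2 and Gbp2 passed the filter on dim probes only through labelled groups. Their calls against control are no independent support. Ifi27l2a rose 41.7-fold (limma adjusted p = 1.74e-05), and Oasl1, a member of the oligoadenylate synthetase family, rose 40.5-fold with 1 of 2 control arrays above background (limma adjusted p = 3.05e-04). Ifit2 fell by 1.58 ± 0.10 (limma adjusted p = 1.86e-04) and Gbp3 by 1.43 ± 0.25 (limma adjusted p = 0.00547). In KLF4-labelled cells 10.4% of all genes were higher and 8.85% lower. Of the list 6 rose, among them Oas3 and Gbp2, which passed that filter only through labelled groups. Ifit2 fell by 0.56 ± 0.10 (limma adjusted p = 0.0217), and the list median was 0.18 against -0.16 over all genes. These 7 calls became 3 to 5 with any 1 array left out. Oas2, an oligoadenylate synthetase, rose 16.2-fold in KLF4-labelled cells (limma adjusted p = 7.19e-05) and 1.77-fold in IRF8-labelled cells (limma adjusted p = 0.00269), and the direct comparison put it 9.17-fold lower in the latter (limma adjusted p = 1.28e-04). Gbp2 was at least 2.77-fold higher in KLF4-labelled cells. Oasl1 was 45.4-fold higher with the IRF8 label than with the KLF4 label (limma adjusted p = 5.42e-04). Only 1 of 2 KLF4-labelled arrays was above background, so that this fold rests partly on an unmeasured level. In that comparison 12 of the 20 were higher and 3 lower, beside 23.7% and 26.8% of all genes.

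Of 10 tested genes known as IRF8 targets in mouse myeloid cells, 7 rose and 1 fell in IRF8-labelled cells. Over all genes 25.8% were higher and 35.7% lower. The list, chosen with earlier results of these data known, had a median of 1.69 against -0.13 over all genes. With genes not above background in control at their bound the median was 1.67. Ctss, the cathepsin that trims the invariant chain of MHC class II, was at least 8051-fold higher (limma adjusted p = 9.31e-06). Ctss and Prdm1, which also rose, passed the filter on dim probes only through labelled groups. Their calls against control are no independent support. Klf4 was 63.2-fold higher (5.98 ± 0.16, limma adjusted p = 1.87e-05). Pml fell by 1.53 ± 0.21 (limma adjusted p = 0.00213). In KLF4-labelled cells 4 rose and the other 6 did not pass, beside 10.4% higher over all genes, with a median of 0.23 against -0.16. Ctss was at least 604-fold higher there (limma adjusted p = 5.44e-05) and Cybb, the phagocyte oxidase subunit, 9.56-fold higher (limma adjusted p = 0.00438). Without the first control array, or without either KLF4-labelled array, 2 were called. In the direct comparison 6 were higher in IRF8-labelled cells and 2 lower, Pml and Cybb, the latter 2.47-fold (limma adjusted p = 0.0299). Over all genes 23.7% were higher and 26.8% lower there.

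**Figure D4:**
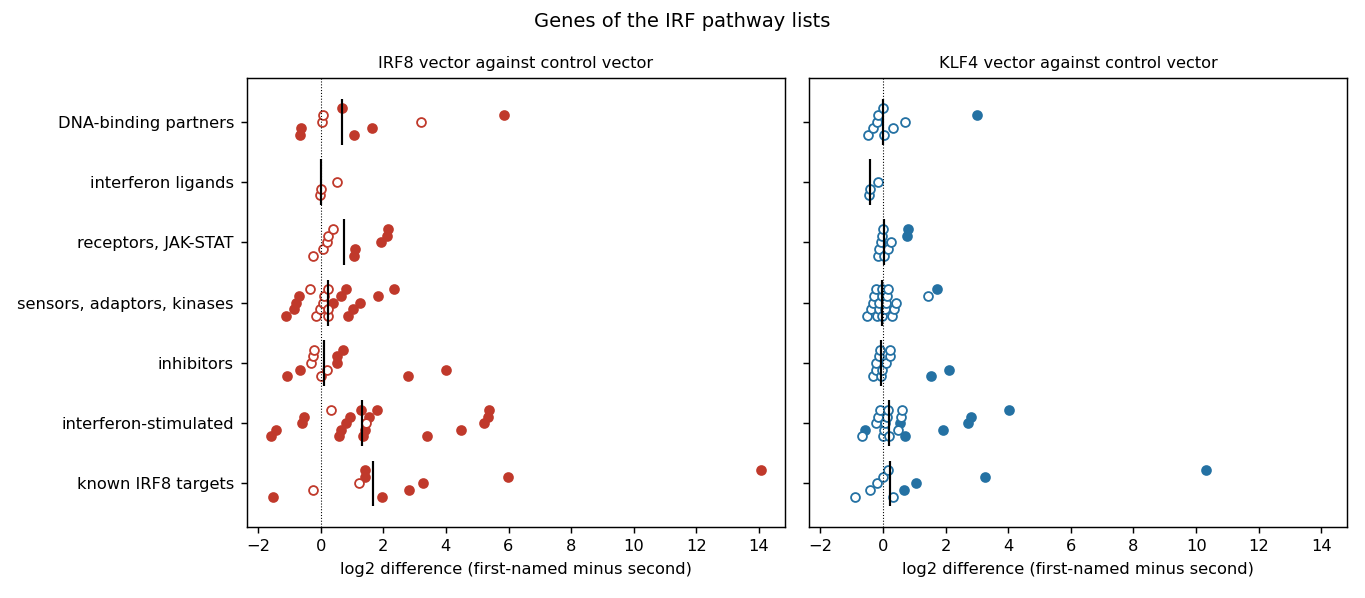
Log2 differences from control (x axis) of the tested genes of 7 lists (rows), for IRF8-labelled cells on the left and KLF4-labelled cells on the right. Each circle is a gene, filled where the adjusted p was under 0.05, and the vertical bar is the list's median. The medians of the interferon-stimulated genes and of the IRF8 targets lie at 1.33 and 1.69 on the left and at 0.18 and 0.23 on the right.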

How the data were processed

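RNA was labelled with Cy3 and read on single-colour Agilent mouse arrays. The authors deposited intensity: per the file headers, Agilent Feature Extraction 10.7.3.1 gave each of 62976 spots a background-subtracted processed signal, with marks (other values of 0 or 1 per the file headers) for spots well above background, saturated or outlying. The deposited value table held the same intensity times 1 factor per array (0.642 to 1.39) (120 to 163 probes departed from it by over 1%), and served as an alternative. Its column medians were 24.5 to 29.3.

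Control spots were removed, which left 59305 spots, and 75 of 55681 probes were left out for outlier marks. Log2 processed signal minus the 75th percentile of the array was analysed; that percentile was 436 to 974 in intensity. Probes were named by accession through RefSeq (GRCm38.p6), while the array design names regions on another build, so the text gives no coordinates except RefSeq promoter windows. The probe with the highest mean stood for a gene, and 13244 genes with a probe well above background on each of the 2 arrays of some group entered a limma 3.58.1 fit (R 4.3.3) of 3 groups with 3 residual degrees of freedom. Tables and figures used Python 3.11.15. Scripts for the statistics were tested on simulated data. Where no array of a group was above background, its level was set per array to the higher of the probe's own signal and the lowest signal above background (log2 -5.42 to -4.32), which gives the at-least folds. That lowest signal is no strict limit of detection. The second Irf1 probe read -4.99 without being above background on the control array of experiment 2, where the lowest signal was -5.31. The at-least folds are therefore approximate limits. The p-values beside those folds are from the limma fit on the signals as read. The number of arrays limits the precision.

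The replicate numbers were those of the 2 experiments; all arrays of an experiment also shared a slide and scan. Deviations of same-numbered arrays from their group means correlated at r = 0.282, 0.321 and 0.391, by which the samples are paired. Unless the block is named, p-values are from fits of group alone, which leave this pairing out. An alternative fit took the experiment as a replicate block. The others were median, quantile and spike-in scaling (8 spike-in probes), normexp with an offset of 50 (on median spot signals, as mean signals were not in the columns used), the deposited table, other filters, other probe rules, other limma settings, the 4 arrays of a comparison alone, and each array left out.

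The members and lists were chosen with earlier results of these data known. Genes named were the 8 members, the 3 genes nearest in pattern to each member raised in both groups, and the 2 largest rises and falls past the threshold per list and comparison, except items not reported here; Spi1, Stat2, Sting1, Ifngr2, Tyk2, Ifna5 and the second value of genes named elsewhere were added after their values were seen. Mx1, Mx2 and Il12b had no matched probe, and Spib, Ifit1 and Ifi44 were too dim to test.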

Additional observations from a re-analysis of the deposited data

How the results depend on the processing

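Each member's difference in each comparison was recomputed under up to 18 alternatives: 377 results kept their direction and side of the threshold, 36 lost the call, 4 gained it (Irf1, IRF8-labelled against control) and 9 turned in sign. Irf2 and Irf5 held every call. Members called in the KLF4 comparison with control numbered 2 with normexp and 3 with the filter on all 6 arrays, which leaves out Irf4 and Irf7, against 5, and 3 to 4 with an array left out. In the direct comparison spike-in scaling called 3 in place of 6, and leaving out an array gave 4 to 6. Against control, the IRF8-labelled cells gave 6 to 8 with an array left out, where a lone array is assumed to vary like the other groups, and 8 with the replicate block, which added Irf1 to the 7 and changed no other member's call. The sign turned for Irf3 in KLF4-labelled against control cells (0.084 with median scaling, 0.073 quantile, 0.050 spike-ins, 0.034 normexp, -0.12 to 0.036 with an array left out) and for Irf7 in the direct comparison (-0.060 median, -0.038 quantile, -0.054 spike-ins, -0.047 to 0.25 with an array left out); the cause was not tested. Calls over all genes ranged from 4882 (spike-ins) to 9946 (block) for IRF8-labelled cells, from 875 (without KLF4 vector replicate 1) to 6743 (block) for KLF4-labelled cells, with 984 under normexp, 973 without a filter, 1549 with every probe by itself and 1496 with 4 arrays alone, and from 3156 (spike-ins) to 8910 (block) in the direct comparison. Genes called in a list, over all alternatives, ranged in the IRF8 comparison from 5 to 8 for receptors and JAK-STAT (5 as reported), 5 to 16 for sensors, adaptors and kinases (12) and 3 to 11 for inhibitors (7). In the KLF4 comparison the ranges were 1 to 4 for partners (1), 0 to 3 for receptors (2), 1 to 10 for sensors (1), 1 to 5 for inhibitors (2), 3 to 10 for interferon-stimulated genes (7) and 2 to 6 for IRF8 targets (4). In the direct comparison they were 3 to 6 for partners (5), 3 to 6 for receptors (5), 3 to 14 for sensors (11) and 1 to 9 for inhibitors (6). The ligands stayed at 0 or 1 in each comparison. Signal near background limits Irf4 and Irf7.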
